A study of Mus musculus with 20 samples.

Results

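The genes described here are 10 genes that mark microglia, the resident macrophages of the brain: C1qa, C1qb, C1qc, P2ry12, Csf1r, Laptm5, Tmem119, Cx3cr1, Tyrobp and Ctss. They were followed through every probe set that the array annotation gives to one of them alone, which made 10 of the 12393 genes so annotated and 17 of the 22626 probe sets that are not controls. C1qb, Csf1r and Laptm5 had 3 probe sets each, Cx3cr1 had 2, and the other 6 genes had 1. The genes were chosen by name and not by a rule on their measured values, but with earlier results of these data known. All 17 probe sets passed the filter on low values, which kept a probe set brighter than the 40th percentile of its array on 2 arrays or more, and 13 of them lay above that limit on all 20 arrays. The 4 dimmer ones were C1qb 1437726_x_at (above it on 5 arrays), Laptm5 1417721_s_at (11 arrays), Laptm5 1436905_x_at (7 arrays) and Cx3cr1 1450019_at (7 arrays).

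The 20 arrays measured total RNA of mouse cerebellum and forebrain in 8 groups. Knock-in cerebellum, wild-type cerebellum, knock-in forebrain and wild-type forebrain each had 3 arrays at 4 weeks of age and 2 arrays at 11 weeks. The labels give no strain, no treatment and not which allele was knocked in, so no targeted gene could be checked. They call the later age 11 weeks in one field and 12 weeks in another. Arrays were assigned to a region by the short code in their titles. Another field names cerebellum for 7 of the 10 forebrain arrays, all but the 3 wild-type ones at 4 weeks, and for 1 of the 7, knock-in forebrain 4 weeks replicate 3, so does the description. On every array the measured region markers followed the short code: the summed intensity of 5 genes known from cerebellum was 183596 to 222525 on cerebellum arrays and 17228 to 20535 on forebrain arrays, and that of 4 forebrain genes was 209 to 667 against 11008 to 22777. Nothing in the labels says that the arrays hold RNA of separate mice, so a p-value reflects no more than the spread among the arrays, and that may be technical. No array was dropped or imputed. Median intensity per array was 979 to 1180, and the 3'/5' signal ratio of GAPDH, a measure of RNA integrity, was 0.744 to 0.903.

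Microglia take up the brain early in development, renew themselves there and survey the tissue with moving processes. Signalling through the receptor Csf1r keeps them alive, P2ry12 senses nucleotides that injured cells release, and Cx3cr1 receives fractalkine, a signal that neurons display. C1qa, C1qb and C1qc are the 3 chains of C1q, the protein that opens the classical complement pathway, and microglia are the main source of C1q in the brain. Tmem119 is a membrane protein used to tell microglia from other macrophages, Tyrobp is the adaptor that carries signals of Trem2 and related receptors, Laptm5 is a lysosomal membrane protein of blood-derived cells, and Ctss is a lysosomal protease. In bulk tissue, fewer microglia and less RNA per microglial cell cannot be told apart, and this holds for all values below.

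All 10 genes were lower in cerebellum than in forebrain, in wild-type and in knock-in mice alike. In wild-type mice 16 of the 17 probe sets fell at an adjusted p under 0.05 and 0 rose, where 21.3% of the 15627 probe sets tested fell. In knock-in mice 16 of 17 fell and 0 rose, where 21.2% of all tested fell. The median difference of the 17 probe sets, cerebellum minus forebrain on the scale of log2(intensity + 16), was -1.36 in wild-type mice, beside 0.04 over all probe sets tested, and -1.28 in knock-in mice, beside 0.02. The highest cerebellum array lay below the lowest forebrain array for 15 of 17 probe sets in wild-type mice, where 16% of all tested did so, and for 13 of 17 in knock-in mice, where 14.9% did. C1qb 1437726_x_at, Laptm5 1436905_x_at and Cx3cr1 1450019_at passed the filter through forebrain arrays alone, so these counts and medians lean partly on the filter. The brightest probe set of each gene lay above the limit on all 20 arrays. Of these, 10 of 10 fell in each genotype, with medians of -1.30 (wild-type) and -1.22 (knock-in). Tests are limma's moderated test, two-sided, adjusted by Benjamini-Hochberg over all probe sets tested, with errors as standard errors of the model unless an SD is named.

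**Figure D1:**
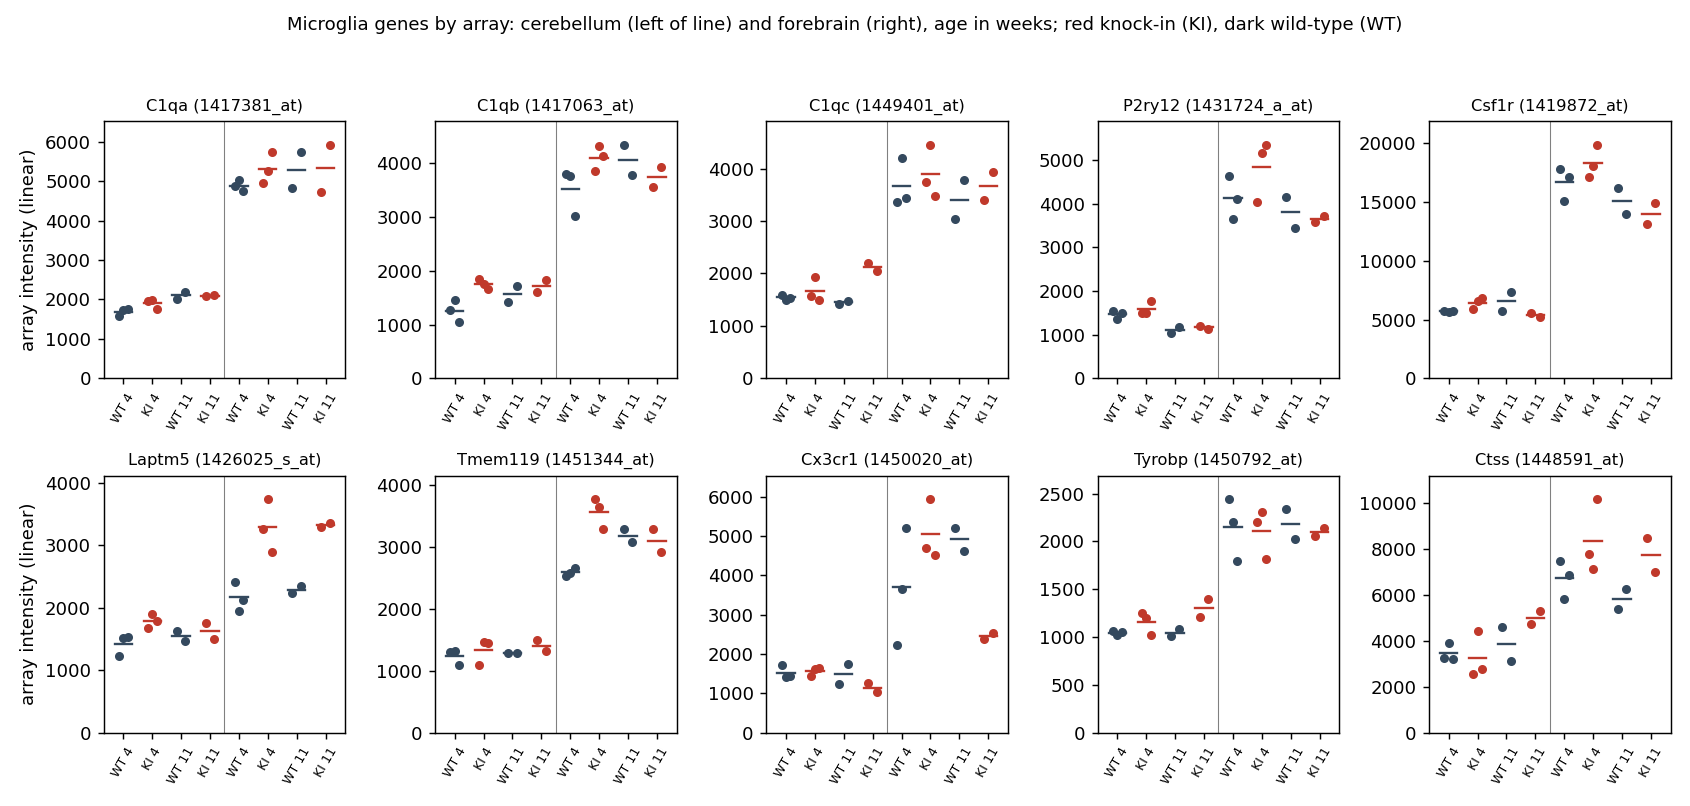
Array intensity on a linear scale of the brightest probe set of each of the 10 genes, one point per array and a line at each group's mean, for cerebellum (left of the grey line) and forebrain (right) of wild-type (dark) and knock-in (red) mice at 4 and 11 weeks. In every panel all 10 cerebellum arrays lie below all 10 forebrain arrays; for C1qa they span 1585 to 2188 against 4725 to 5925.

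The C1q chains moved together between regions. C1qa (1417381_at) read 1585 at its lowest, 1971 at the median and 2188 at its highest over the 10 cerebellum arrays, and 4725, 4996 and 5925 over the 10 forebrain arrays. No cerebellum array reached the lowest forebrain array. In wild-type mice the difference was -1.42 ± 0.08 (adjusted p = 1.07e-09, limma), a 2.68-fold difference. C1qb (1417063_at) gave -1.43 ± 0.10 (adjusted p = 1.29e-08, limma), with 1045, 1632 and 1838 in cerebellum against 3022, 3821 and 4341 in forebrain. C1qc (1449401_at) gave -1.23 ± 0.10 (adjusted p = 8.38e-08, limma), with 1417, 1555 and 2192 against 3031, 3611 and 4456. The groups of arrays did not overlap for either chain.

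The other C1qb probe sets did not all follow. The dim 1437726_x_at gave -1.0 ± 0.22 in wild-type mice (adjusted p = 0.00126, limma), and it lay below the filter limit on all 10 cerebellum arrays and 5 of the 10 forebrain arrays, so this size depends on background. With the cerebellum values raised to that limit, forebrain stood at 0.93-fold of cerebellum, so its direction is not secured either. The probe set 1434366_x_at was the single exception among the 17: its wild-type difference was 0.11 ± 0.25 (adjusted p = 0.739, limma), with a 95% interval from -0.42 to 0.64. It read 956 to 2809 in cerebellum and 1482 to 3144 in forebrain, ranges that overlap almost wholly. Its spread within groups was an SD of 0.43 log2 units, wider than that of 92.3% of all probe sets tested, while 1417063_at had 0.15. A name ending in _x_at or _s_at marks probes that also match other transcripts, so these probe sets may carry signal from elsewhere, which was not tested.

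Among the receptors, P2ry12 (1431724_a_at) had the widest regional difference of the brightest probe sets. It read 1044, 1432 and 1769 (lowest, median, highest) in cerebellum and 3446, 4065 and 5346 in forebrain. The difference was -1.62 ± 0.10 in wild-type mice (adjusted p = 2.13e-09, limma), or 3.07-fold, and -1.61 ± 0.10 in knock-in mice (adjusted p = 2.54e-09). The 3 probe sets of Csf1r, the receptor for the growth factors Csf1 and Il34, gave nearly one value in wild-type mice: -1.38 ± 0.09 for 1419872_at, -1.36 ± 0.08 for 1419873_s_at and -1.37 ± 0.12 for 1423593_a_at. Their knock-in differences were -1.44 ± 0.09, -1.36 ± 0.08 and -1.16 ± 0.12. The brightest, 1419872_at, read 5212, 5737 and 7316 in cerebellum and 13145, 16643 and 19854 in forebrain, with no overlap.

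Cx3cr1 (1450020_at) read 1039, 1440 and 1738 in cerebellum and 2230, 4571 and 5940 in forebrain. The difference was -1.46 ± 0.18 in wild-type (adjusted p = 5.49e-06, limma) and -1.39 ± 0.18 in knock-in mice (adjusted p = 1.11e-05). Its second probe set, 1450019_at, lay below the filter limit on all 10 cerebellum arrays, at 32.6 to 399, and above it on 7 of 10 forebrain arrays, which spanned 507 to 1320. With the cerebellum values raised to that limit it was at least 1.25-fold higher in forebrain. Tmem119 (1451344_at) read 1087, 1312 and 1491 in cerebellum and 2539, 3184 and 3780 in forebrain, a wild-type difference of -1.18 ± 0.10 (adjusted p = 4.3e-08, limma). Tyrobp (1450792_at) read 1008, 1070 and 1402 against 1794, 2171 and 2444, a wild-type difference of -1.03 ± 0.10 (adjusted p = 4.5e-07). Neither gene's regions overlapped on any array.

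The 2 lysosomal genes had the smallest regional differences among the brightest probe sets of wild-type mice. Ctss (1448591_at) read 2549, 3582 and 5318 in cerebellum and 5390, 7058 and 10188 in forebrain, regions that lay close to each other without overlapping. Its difference was -0.79 ± 0.16 in wild-type (adjusted p = 0.000817, limma) and -1.0 ± 0.16 in knock-in mice (adjusted p = 0.000105). Laptm5 (1426025_s_at) read 1223, 1577 and 1894 in cerebellum and 1948, 2656 and 3739 in forebrain. It gave -0.58 ± 0.10 in wild-type (adjusted p = 0.00013, limma) and -0.95 ± 0.10 in knock-in mice (adjusted p = 8.64e-07). The other Laptm5 probe sets gave -1.30 ± 0.34 (1417721_s_at) and -2.11 ± 0.43 (1436905_x_at) in wild-type mice. The second of these lay below the limit on all 10 cerebellum arrays and was at least 1.13-fold higher in forebrain, while 1417721_s_at lay below it on 8 of the 10. The 3 probe sets had the same direction, and the sizes of the 2 dimmer ones depend on background.

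**Figure D2:**
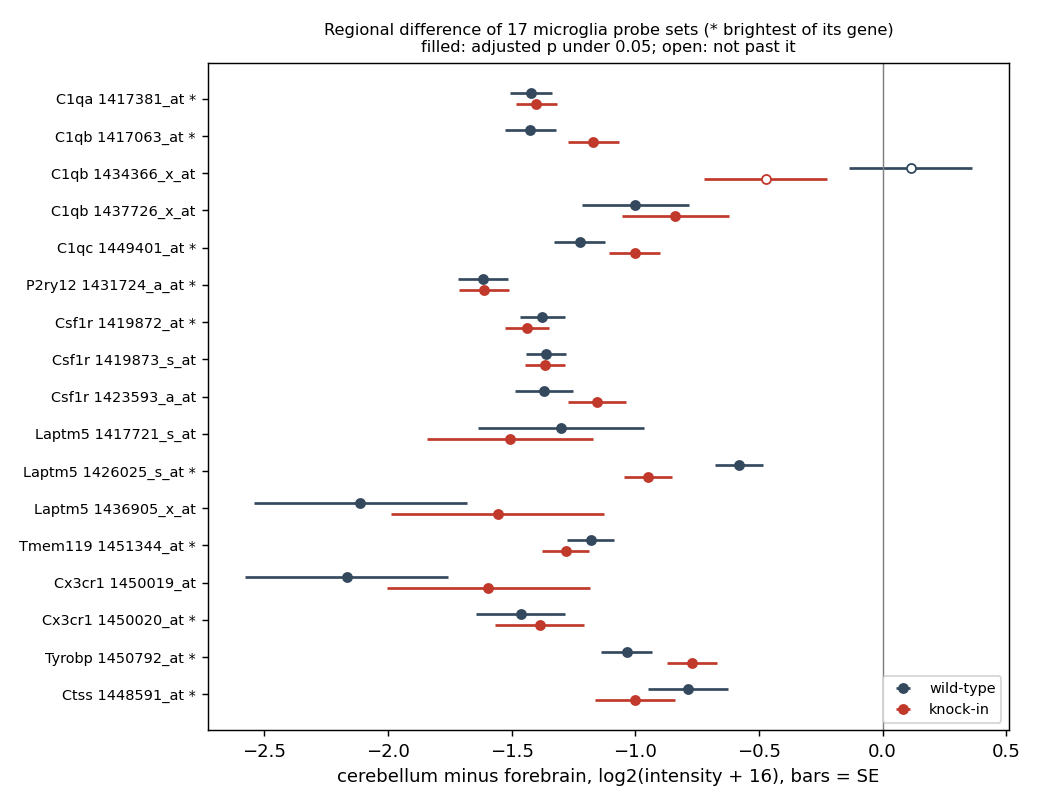
Difference between cerebellum and forebrain of the 17 probe sets on the log2(intensity + 16) scale, mean of both ages, in wild-type (dark) and knock-in (red) mice; points are model estimates, bars their standard errors, filled points have an adjusted p under 0.05 and an asterisk marks the brightest probe set of a gene. All points lie left of 0 but the wild-type one of C1qb 1434366_x_at at 0.11, and both of that probe set's points are open.

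The regional result rests on forebrain arrays whose labels conflict, apart from the wild-type ones at 4 weeks. For the wild-type arrays of 4 weeks, a contrast was taken within the fit of all arrays. Its differences rest on those arrays alone, but its p-values use the spread of all arrays, those with conflicting labels included. In this contrast 15 of 17 probe sets were called lower in cerebellum. The share over all probe sets tested is not given for this contrast. In the wild-type contrast over both ages it was 21.3%. The one lost was Laptm5 1417721_s_at, at -0.31 (adjusted p = 0.603, limma), while P2ry12 gave -1.47, C1qa -1.52 and Csf1r 1419872_at -1.54. Without knock-in forebrain 4 weeks replicate 3, whose description names cerebellum, 16 of 17 remained called in knock-in mice. Leaving out knock-in cerebellum 11 weeks replicate 1 gave 15, and leaving out replicate 2 of that group gave 17.

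Other cell types also differed between the regions, and their part in the result was not tested. In wild-type mice 8 of 11 measured oligodendrocyte genes were higher and 1 lower in cerebellum, 5 of 10 astrocyte genes were higher and 2 lower, 4 of 4 choroid plexus genes were higher, and 2 of 10 general neuron genes were higher and 6 lower. Of all probe sets tested 26.6% were higher and 21.3% lower, shares that stand beside every wild-type regional list count here and below. Of 11 genes of endothelial cells and pericytes 0 passed in either direction by limma, and 0 had an unadjusted p under 0.05. Of 16 genes on the array that mark macrophages of the brain's borders or blood leukocytes, 8 lay below the filter limit on all 20 arrays, namely Cbr2, Ccr2, Cd163, Cd36, Cd79a, Lyve1, S100a8 and S100a9. Of the 7 that were tested 3 were lower in cerebellum (Mrc1 -0.43, Pf4 -0.52, Stab1 -0.57) and 0 higher, and these 3 were below the limit on all 5 wild-type cerebellum arrays.

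Genes of microglia and other myeloid cells outside the 10 were mostly lower in cerebellum as well. Of 29 tested, 18 were lower in cerebellum of wild-type mice and 1 higher, with a median of -0.66. The lowest p-values were those of Cd53, a tetraspanin of leukocytes (-1.72), Fcrls, an Fc receptor-like protein of microglia (-1.72), Cd68, a lysosomal protein of macrophages (-1.24), and Coro1a, an actin regulator of leukocytes (-0.97). Cd53 and Cd68 lay below the filter limit on all 5 wild-type cerebellum arrays and were at least 2.21-fold and 1.74-fold higher in forebrain. Also below it on all 5, though counted among the 18, were Entpd1, Itgb2, Irf8, Aif1, Fcgr3 and Hpgds. Entpd1, Itgb2 and Irf8 were at least 1.20-fold, 1.05-fold and 1.00-fold higher in forebrain. Aif1, Fcgr3 and Hpgds had no such bound above 1, so their falls depend on background. The one that was higher was Itgb5, an integrin subunit (0.41). Of 14 genes known to rise in activated microglia 2 were higher (Cd9 at 0.87, Ctsl at 0.31) and 2 lower (Lpl at -2.90 with 1 of 5 wild-type cerebellum arrays above the limit, Timp2 at -2.56), with a median of -0.05.

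The partners of the members differed between regions more unevenly. Of 10 tested ligands, partners and inhibitors 5 were lower and 1 higher in wild-type cerebellum. Cx3cl1, or fractalkine, the ligand of Cx3cr1, averaged 2744 in cerebellum and 36487 in forebrain, a difference of -3.72 ± 0.10 (adjusted p = 9.06e-14, limma). Il34, a ligand of Csf1r that neurons make, averaged 597 against 2214 and passed the limit on 3 of 5 cerebellum arrays of wild-type mice, a difference of -1.88 ± 0.15 (adjusted p = 4.69e-08). Csf1, the other ligand of Csf1r, averaged 2114 against 1759 and was not called (0.24 ± 0.14, adjusted p = 0.186). Cst3, an inhibitor of cathepsins, gave -1.06, and Tgfbr1, a receptor subunit for TGF-beta, gave -0.95. Serping1, the inhibitor that stops the C1 complex, was the one that was higher, by 0.75 ± 0.11 (adjusted p = 2.24e-05).

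Because the members moved together between regions, the 250 bases before the annotated starts of their genes were read for those that RefSeq's promoter table (GRCm38.p6) holds, which were 6 of the 10: C1qb, C1qc, P2ry12, Laptm5, Cx3cr1 and Ctss. The letters GAGGAA, the core that the myeloid transcription factor PU.1 binds, or their reverse complement TTCCTC, occurred in 4 of these 6 (C1qb, C1qc, Laptm5 and Ctss), against 23.3% of 32851 promoter windows of the same length. The longer GAGGAAG occurred in 2 of 6 (C1qc and Laptm5), against 10.6%. The shorter GGAA, which GAGGAA contains and all ETS factors share, occurred in 6 of 6, against 93.4%. All searches covered both strands. A match is a description of letters and not a binding site. The windows of 4 genes follow, 5′ to 3′ on the gene's own strand with GAGGAA or TTCCTC in capitals. C1qb and C1qc lie beside each other on chromosome 4 with 0 protein-coding genes between them. For Laptm5 the brightest probe set alone was called between genotypes. P2ry12 differed most between regions among the brightest probe sets and holds no such match.
C1qb, chr4:136886201-136886450, minus strand: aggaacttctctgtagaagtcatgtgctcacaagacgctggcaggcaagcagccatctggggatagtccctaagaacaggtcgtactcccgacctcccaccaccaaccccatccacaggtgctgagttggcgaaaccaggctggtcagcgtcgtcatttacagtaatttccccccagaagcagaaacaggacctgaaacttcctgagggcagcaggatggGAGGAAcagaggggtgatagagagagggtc
C1qc, chr4:136892915-136893164, minus strand: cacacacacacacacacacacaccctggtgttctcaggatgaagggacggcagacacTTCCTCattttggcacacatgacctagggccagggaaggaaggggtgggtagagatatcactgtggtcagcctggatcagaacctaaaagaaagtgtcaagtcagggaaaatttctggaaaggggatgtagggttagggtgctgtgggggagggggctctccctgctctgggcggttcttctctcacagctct
Laptm5, chr4:130913066-130913315, plus strand: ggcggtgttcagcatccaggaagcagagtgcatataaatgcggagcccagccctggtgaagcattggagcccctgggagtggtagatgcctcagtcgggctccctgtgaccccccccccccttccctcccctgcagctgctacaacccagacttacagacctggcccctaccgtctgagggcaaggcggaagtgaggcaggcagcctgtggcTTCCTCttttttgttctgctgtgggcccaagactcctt
P2ry12, chr3:59262986-59263235, minus strand: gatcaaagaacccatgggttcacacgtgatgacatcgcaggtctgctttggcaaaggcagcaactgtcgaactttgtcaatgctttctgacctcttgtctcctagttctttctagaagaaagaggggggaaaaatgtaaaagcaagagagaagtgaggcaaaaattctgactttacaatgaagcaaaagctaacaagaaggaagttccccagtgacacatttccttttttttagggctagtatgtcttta
In C1qb the match began 30 bases before the start, in Laptm5 38 bases and in C1qc 193 bases before it. C1qa is the next protein-coding gene beside C1qc, again with 0 others between, and its regional difference of -1.42 stands beside -1.43 for C1qb and -1.23 for C1qc.

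Between genotypes few members were called. In forebrain at 4 weeks Laptm5 and Tmem119 rose in knock-in mice, which made 2 of 17 probe sets called higher and 0 lower, where 4.95% of all tested were called higher. In forebrain at 11 weeks 0 of 17 were called in either direction, where 0.864% of all tested were called. In cerebellum 0 of 17 were called at 4 weeks, where 0.0512% of all tested were, and 0 of 17 at 11 weeks, where 0.346% were. At an unadjusted p under 0.05 the same limma fit counted 4 of 17 in forebrain at 4 weeks (25.8% of all tested), 2 in forebrain at 11 weeks (15.6% of all), 5 in cerebellum at 4 weeks (13.3% of all) and 2 in cerebellum at 11 weeks (14.8% of all). These member counts are small, and 3 of the 4 stand below the share over all probe sets.

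Laptm5 (1426025_s_at) read 3256, 3739 and 2895 on the 3 knock-in forebrain arrays at 4 weeks and 2416, 1948 and 2123 on the wild-type ones. The lowest knock-in array lay above the highest wild-type array, with means of 3297 ± 423 and 2162 ± 236 (SD, n = 3 each). The difference was 0.60 ± 0.12 (adjusted p = 0.0120, limma), or 1.52-fold. At 11 weeks it read 3295 and 3354 against 2228 and 2339, again with no overlap, a difference of 0.54 ± 0.15 that did not pass (adjusted p = 0.11, limma). With 2 arrays per group at that age, 26.9% of all tested lay apart with knock-in higher. Over both ages in forebrain it rose by 0.57 ± 0.10 (adjusted p = 0.00306), the 1 call among 17 probe sets, where 8.36% of all tested were called higher.

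In cerebellum Laptm5 1426025_s_at read 1680, 1894 and 1793 in knock-in against 1223, 1521 and 1527 in wild-type mice at 4 weeks, and 1752 and 1505 against 1626 and 1458 at 11 weeks. The 4-week arrays did not overlap (0.33 ± 0.12, adjusted p = 0.26, limma) and the 11-week arrays did (0.08 ± 0.15, adjusted p = 0.868). Over both ages of cerebellum 0 of 17 probe sets were called, where 3.35% of all tested were, with 3 of 17 at an unadjusted p under 0.05, as were 21.5% of all tested. The genotype difference of Laptm5 was 0.37 ± 0.14 larger in forebrain than in cerebellum, which did not pass (adjusted p = 0.401, limma). Averaged over all 4 region and age groups it rose by 0.39 ± 0.07 (adjusted p = 0.00181), again the 1 call among 17, where 15% of all tested were called higher.

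The other Laptm5 probe sets did not bear out a single direction in forebrain at 4 weeks. Probe set 1417721_s_at read 1091, 1504 and 1466 in knock-in against 1005, 602 and 877 in wild-type mice, 0.72 ± 0.43 (adjusted p = 0.304, limma). Probe set 1436905_x_at read 589, 531 and 729 against 923, 1160 and 1084, -0.77 ± 0.54 (adjusted p = 0.393). Both are near the filter limit, whose median was 681, and their spread within groups was wider than that of 96.6% and 98.6% of all probe sets tested. The rise of Laptm5 passed for its brightest probe set alone, whose name also ends in _s_at.

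Tmem119 (1451344_at) read 3780, 3648 and 3300 in knock-in forebrain at 4 weeks and 2539, 2581 and 2668 in wild-type forebrain. All 3 knock-in arrays lay above all 3 wild-type arrays, with means of 3576 ± 248 and 2596 ± 66 (SD, n = 3 each). The rise was 0.46 ± 0.12 (adjusted p = 0.0334, limma), or 1.37-fold. At 11 weeks the arrays read 3290 and 2917 against 3294 and 3077 and overlapped, a difference of -0.04 ± 0.15 (adjusted p = 0.932) with a 95% interval from -0.35 to 0.27. The change of the genotype difference between the ages was -0.50 ± 0.19, which did not pass (adjusted p = 0.773). In cerebellum the differences were 0.10 ± 0.12 at 4 weeks and 0.12 ± 0.15 at 11 weeks.

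These 2 calls depended on single arrays. Without knock-in replicate 2 or without wild-type replicate 2 of the 4-week forebrain groups, Laptm5 was no longer called (0.51, adjusted p = 0.0532, and 0.53, adjusted p = 0.0527, limma). Wild-type replicate 2 was also the lowest Laptm5 array of its group. Tmem119 was no longer called without knock-in replicate 1 (adjusted p = 0.103), knock-in replicate 2 (0.0976) or wild-type replicate 1, 2 or 3 (0.0638, 0.0891 and 0.0621). Without knock-in replicate 3, the array whose description names cerebellum, both stayed called (Laptm5 0.69, adjusted p = 0.0119; Tmem119 0.51, adjusted p = 0.0405). Fitted to these 2 groups alone, neither was called (adjusted p = 0.0793 and 0.0846). The direction of the 2 brightest probe sets held in each of these fits.

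**Figure D3:**
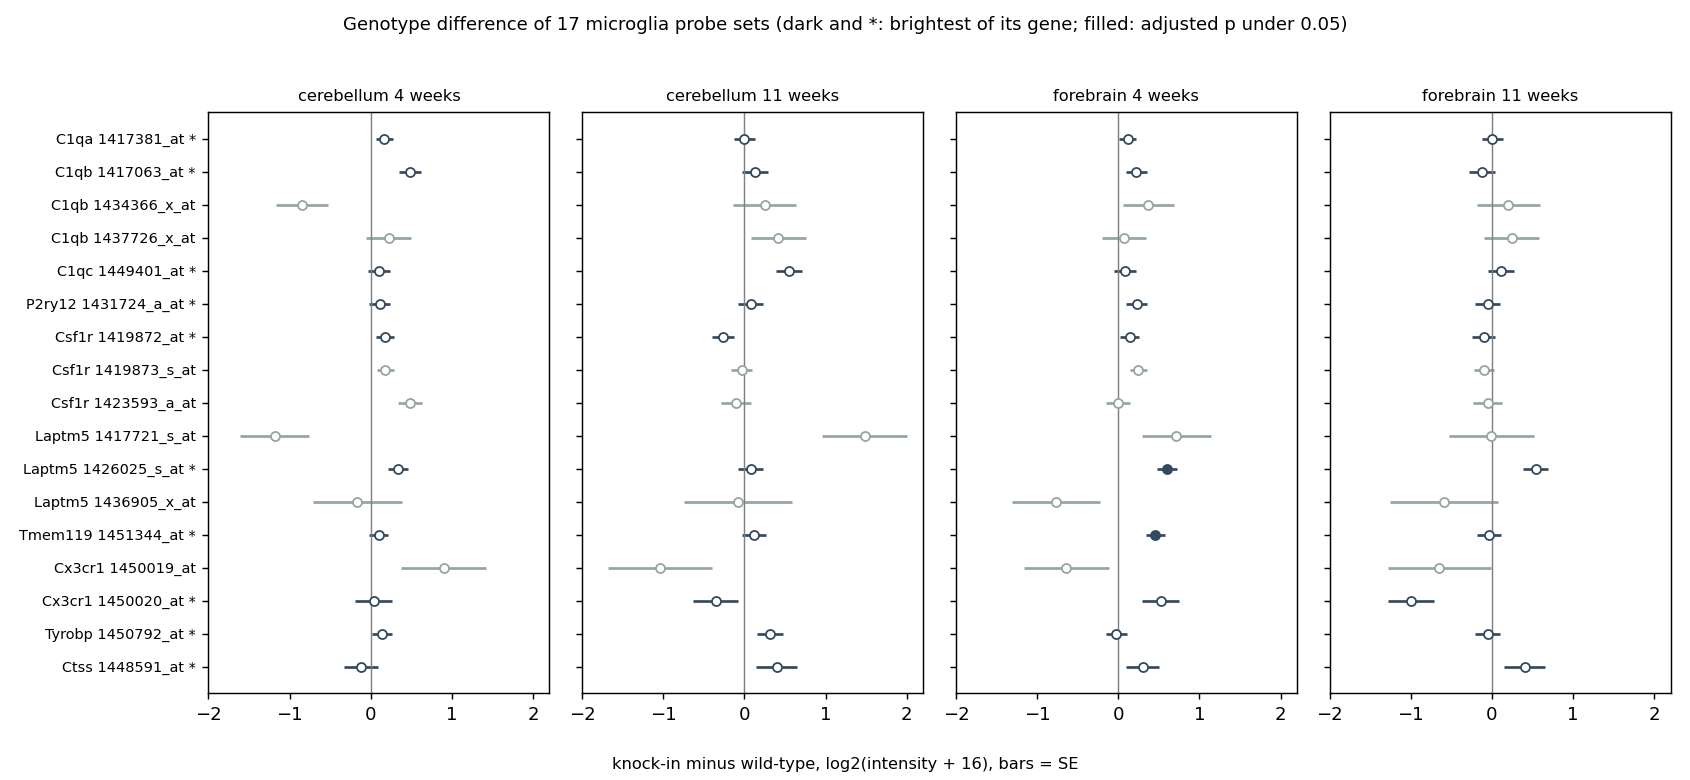
Knock-in minus wild-type difference of the 17 probe sets on the log2(intensity + 16) scale in each region and age; bars are standard errors of the model, filled points have an adjusted p under 0.05, and dark points with an asterisk are the brightest probe set of their gene. Filled points appear only in forebrain at 4 weeks, for Laptm5 1426025_s_at at 0.60 and Tmem119 at 0.46, and the widest bars belong to the dim probe sets.

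Cx3cr1 had genotype differences of opposite sign at the 2 ages of forebrain, neither called. Its probe set 1450020_at read 4694, 5940 and 4519 in knock-in against 2230, 3647 and 5211 in wild-type forebrain at 4 weeks, overlapping groups with a difference of 0.52 ± 0.23 (adjusted p = 0.163, limma). At 11 weeks it read 2367 and 2539 against 5208 and 4624, so both knock-in arrays lay far below both wild-type arrays, by -1.0 ± 0.28 (adjusted p = 0.11). Of all tested, 21.1% lay apart with knock-in lower in these 2 groups. The change of the genotype difference with age was -1.52 ± 0.36, the largest of the 10 brightest probe sets, and did not pass (unadjusted p = 0.000696, adjusted p = 0.524). The 4-week difference depended on single wild-type arrays: it was 0.81 without replicate 3 (adjusted p = 0.0372) and 0.20 without replicate 1 (adjusted p = 0.517). The dimmer 1450019_at gave -0.64 ± 0.52 at 4 weeks and -0.65 ± 0.64 at 11 weeks, with every knock-in array below every wild-type array of its age.

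For no member did the change of the genotype difference between regions or ages pass limma's test. For the difference between regions 0 of 17 probe sets were called, where 0.282% of all tested were, with 1 of 17 at an unadjusted p under 0.05, as were 9.14% of all tested. Between ages 0 of 17 were called in forebrain, where 0% of all tested were, and 0 of 17 in cerebellum, where 0.0256% were, with 3 and 6 of 17 at an unadjusted p under 0.05, as were 6.21% and 5.77% of all tested. The widest of these in cerebellum was Laptm5 1417721_s_at. It read 651, 233 and 136 in knock-in against 800, 573 and 596 in wild-type mice at 4 weeks, and 339 and 807 against 166 and 191 at 11 weeks, mostly below the filter limit.

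No C1q chain was called between genotypes in forebrain. C1qa read 4954, 5256 and 5739 in knock-in against 4868, 5038 and 4757 in wild-type mice at 4 weeks, 0.12 ± 0.11 (adjusted p = 0.509, limma), with a 95% interval from -0.11 to 0.34. At 11 weeks it read 4725 and 5925 against 4839 and 5733, 0.01 ± 0.13 (adjusted p = 0.989), with an interval from -0.27 to 0.28. C1qc gave 0.08 ± 0.13 and 0.11 ± 0.16 at the 2 ages of forebrain. C1qb (1417063_at) read 3847, 4312 and 4137 in knock-in against 3794, 3751 and 3022 in wild-type mice at 4 weeks, with no overlap and a difference of 0.22 ± 0.13 (adjusted p = 0.298), and its difference was -0.12 ± 0.16 at 11 weeks.

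In cerebellum C1qb (by its brightest probe set) and C1qc had their widest genotype differences at different ages, and neither passed. C1qb (1417063_at) read 1838, 1756 and 1652 in knock-in against 1274, 1448 and 1045 in wild-type mice at 4 weeks, with no overlap and a difference of 0.48 ± 0.13 (adjusted p = 0.141, limma). At 11 weeks it read 1611 and 1818 against 1423 and 1711, 0.13 ± 0.16. Its other probe set 1434366_x_at went the opposite way at 4 weeks, with 956, 1860 and 1280 in knock-in below 2340, 2140 and 2691 in wild-type mice, by -0.85 ± 0.32 (adjusted p = 0.262), so the direction for C1qb depends on the probe set. C1qc read 2192 and 2046 against 1417 and 1479 at 11 weeks, 0.54 ± 0.16 (adjusted p = 0.141), and 1571, 1934 and 1486 against 1587, 1502 and 1539 at 4 weeks, 0.10 ± 0.13. Over all 4 region and age groups C1qc was higher by 0.21 ± 0.07, just short of the threshold (adjusted p = 0.0503, limma).

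Of the remaining receptors and adaptors none was called between genotypes. For P2ry12 the 4 differences ran from -0.05 to 0.23, with 4032, 5152 and 5346 in knock-in against 4620, 3652 and 4097 in wild-type forebrain at 4 weeks. Csf1r 1419872_at gave 0.14 ± 0.11 at 4 weeks and -0.10 ± 0.14 at 11 weeks in forebrain, and 0.17 ± 0.11 and -0.26 ± 0.14 in cerebellum. Its cerebellum arrays did not overlap at either age, knock-in being higher at 4 weeks and lower at 11 weeks, with 5923, 6584 and 6818 in knock-in against 5728, 5674 and 5688 in wild-type mice at 4 weeks, and 5583 and 5212 against 5746 and 7316 at 11 weeks. Of all tested, 11.2% lay apart with knock-in higher at 4 weeks and 22.4% with knock-in lower at 11 weeks. Tyrobp differed by -0.02 ± 0.13 and -0.05 ± 0.16 in forebrain and by 0.14 ± 0.13 and 0.32 ± 0.16 in cerebellum. Ctss was higher on both knock-in arrays at 11 weeks in both regions, 8467 and 7004 against 5390 and 6274 in forebrain (0.40 ± 0.25, adjusted p = 0.471, limma) and 4717 and 5318 against 4601 and 3134 in cerebellum (0.40 ± 0.25, adjusted p = 0.491). At that age the same held for 26.9% of all tested in forebrain and 26.9% in cerebellum.

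Most members' differences were above 0 in knock-in mice at 4 weeks. In forebrain at 4 weeks 14 of 17 probe sets had a difference above 0, as had 8558 of all 15627 tested. The median of the 17 was 0.22 beside 0.04 over all probe sets tested. The arrays did not overlap for 5 higher and 2 lower probe sets, where 17.2% and 11.5% of all tested were so. In cerebellum at 4 weeks 13 of 17 were above 0, as were 8653 of all 15627 tested, with a median of 0.14 beside 0.03. There the arrays did not overlap for 6 higher and 1 lower, where 11.2% and 7.59% were so. At 11 weeks 6 of 17 were above 0 in forebrain (median -0.05) and 10 of 17 in cerebellum (median 0.08), beside 8640 and 8274 of all 15627 tested. The forebrain split over all probe sets depended on scaling: 773 were higher and 378 lower as deposited, 458 and 467 after quantile normalization, and 379 and 504 after cyclic loess, while the median of the 17 stayed at 0.22, 0.23 and 0.19.

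The mean of the 10 brightest probe sets per array, relative to the mean of its region, showed the same pattern by sample. In forebrain at 4 weeks it was 0.10 to 0.24 on the knock-in arrays and -0.12 to -0.09 on the wild-type arrays, with no overlap. In cerebellum at 4 weeks it was -0.02 to 0.17 against -0.13 to -0.06. At 11 weeks it was -0.10 to -0.03 against -0.05 to -0.02 in forebrain, which overlap, and 0.05 to 0.09 against -0.07 to 0.01 in cerebellum.

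**Figure D4:**
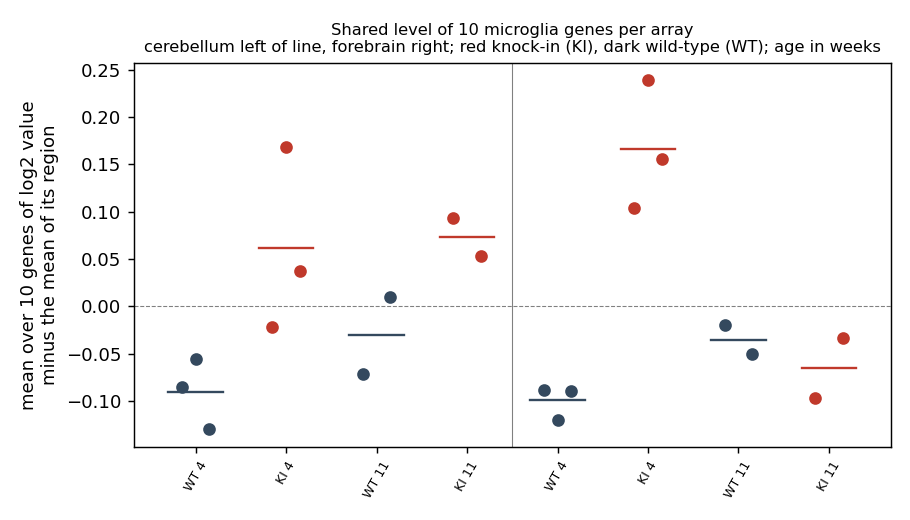
Mean over the 10 genes of the brightest probe set's log2(intensity + 16), minus the mean of the array's region, one point per array and a line at each group's mean, cerebellum left and forebrain right of the grey line. At 4 weeks the knock-in points (red) lie above the wild-type ones (dark) in both regions, most clearly in forebrain at 0.10 to 0.24 against -0.12 to -0.09.

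Several other measures separated the same forebrain groups at 4 weeks, and their part in the result was not tested. Median intensity was 1097 to 1117 on the knock-in arrays and 979 to 1036 on the wild-type arrays. The summed intensity of the 4 forebrain genes was 13855 to 14797 against 16137 to 19107, and that of the 5 cerebellum genes was 17443 to 18898 against 19638 to 20535. The GAPDH 3'/5' ratio was mostly higher on the knock-in arrays and overlapped at its edge, with 0.827 to 0.890 against 0.744 to 0.828. The summed intensity of the 16 border macrophage and leukocyte genes was 7476 to 9024 against 6272 to 6833, with the 8 named above as dim still below the limit. That of 41 other microglia and myeloid genes was 55610 to 58077 against 49809 to 52887. Median intensity was higher on every knock-in array than on every wild-type array in the other groups as well. In cerebellum it was 1083 to 1180 against 1046 to 1072 at 4 weeks and 1064 to 1100 against 1037 to 1040 at 11 weeks. In forebrain at 11 weeks it was 1073 to 1079 against 989 to 1059. Its part in the genotype differences of these groups was not tested.

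Among the other lists in forebrain at 4 weeks 2 of 29 other microglia and myeloid genes rose in knock-in mice and 0 fell, with a median of 0.22. They were Slc2a5, a fructose transporter of microglia (0.80 ± 0.20, adjusted p = 0.0303, limma), and Cd14, a receptor that binds bacterial lipopolysaccharide (0.63 ± 0.16, adjusted p = 0.0314). Of 10 ligands, partners and inhibitors 1 rose, the C1 inhibitor Serping1, which averaged 1090 against 691 (0.65 ± 0.13, adjusted p = 0.0125). Of 14 activation genes 1 rose, the integrin subunit Itgax, which averaged 812 against 393 (1.01 ± 0.21, adjusted p = 0.0135). Itgax lay below the filter limit on all 3 wild-type arrays and above it on 2 of 3 knock-in arrays, so it was at least 1.26-fold higher. Of 7 border macrophage and leukocyte genes 1 rose, Plac8 (0.96 ± 0.24, adjusted p = 0.0261). Plac8 was above the limit on 1 of 3 knock-in arrays and on 0 of 3 wild-type arrays, which bounds it at 1.09-fold or more. These counts stand beside the 4.95% of all probe sets called higher, and none is read as particular to its list.

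Between ages a single probe set was called. From 4 to 11 weeks, averaged over genotypes, 1 of 17 probe sets fell in cerebellum and 0 rose, where 1.27% of all tested fell. That was P2ry12, which read 1497, 1503 and 1769 (knock-in) and 1544, 1367 and 1501 (wild-type) at 4 weeks, and 1206 and 1123 (knock-in) and 1044 and 1167 (wild-type) at 11 weeks. Every 11-week array lay below every 4-week array. The fall was -0.42 ± 0.10 (adjusted p = 0.0461, limma), or 1.34-fold, and it did not pass when any one of the 10 cerebellum arrays was left out (adjusted p from 0.0508 to 0.196). C1qa moved the other way in cerebellum, with all 11-week arrays above all 4-week arrays, by 0.23 ± 0.08, which did not pass (adjusted p = 0.203).

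In forebrain 0 of 17 probe sets were called between ages by limma, where 0.096% of all tested were, with 2 of 17 at an unadjusted p under 0.05, the same share as the 11.7% over all tested. These 2, which are no more than that background, were Csf1r 1419872_at (-0.27 ± 0.09, adjusted p = 0.274) and P2ry12 (-0.26 ± 0.10, adjusted p = 0.345), and the other Csf1r probe sets gave 0.01 ± 0.08 and 0.07 ± 0.12. In cerebellum 6 of 11 oligodendrocyte genes fell with age, where 1.27% of all tested fell. Of these 6, Mobp and Olig1 were each lost in 8 of 10 fits that left out 1 array. Of the members' partners Cd93, once described as a C1q receptor, fell by 0.98 (adjusted p = 0.00616, limma, above the limit on 1 of 4 arrays at 11 weeks). Tgfbr2, a receptor subunit for TGF-beta, rose by 0.31 (adjusted p = 0.042, limma) and was lost in 9 of 10 such fits.

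The probe sets varied unlike each other within groups. For the brightest ones the SD within groups ran from 0.11 log2 units for C1qa to 0.30 for Cx3cr1, and Cx3cr1 was more variable than 80.2% and Ctss (0.27) more than 73.3% of all probe sets tested. Over the 20 arrays each brightest probe set correlated with the mean of the other member probe sets, those of its own gene included, at r of 0.85 (Laptm5) to 0.98 (C1qa), which reflects arrays of 2 regions. After each region's mean was subtracted, which keeps differences of genotype and age, the same r ran from 0.10 (Cx3cr1) to 0.59 (C1qb). After each group's mean was subtracted it ran from -0.13 (Cx3cr1) to 0.47 (Csf1r). Csf1r's probe sets tracked each other at r of 0.95 to 0.98 over the 20 arrays, while C1qb 1417063_at and 1434366_x_at did so at 0.17.

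Over the 20 arrays the probe sets of other genes most like the mean of the members were those of Efna3 (r = 0.99), Ncdn (0.99), Basp1 (0.99), Tmem191c (0.99), Hpca (0.99) and Cspg5 (0.98). With each region's mean subtracted they were those of Sh3rf1 (0.77), Ncdn (0.77), Rhbdd3 (0.76), Nosip (0.76), Praf2 (0.76) and Wdsub1 (0.75). These are the highest values among all tested probe sets that carry 1 gene name and belong to no member, and arrays of one region share their dissection.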

How the data were processed

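The deposited values are array intensities, linear and not logged. Leaving out 2% at each end, each array's mean was between 2500.59 and 2500.75, so the authors' values already share a mean, and the software behind this is not given in the sources used here. There are 22690 probe sets, of which 64 are controls. Names came from the platform's probe annotation, where 20380 probe sets have 1 gene, 691 have more and 1555 have no name; 20364 of the single names were found in RefSeq (GRCm38.p6). Arrays have no depth; their number limits the precision.

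From the deposited intensities, log2(intensity + 16) was computed, which understates changes of dim genes. The 15627 probe sets brighter than the 40th percentile of their array on 2 arrays or more were fitted across all 20 arrays with limma 3.58.1 (lmFit, eBayes; R 4.3.3, the data.table package in version 1.17.8), 1 mean per group, with 12 residual and 3.45 prior degrees of freedom. Adjusted p-values are two-sided, Benjamini-Hochberg over all 15627, called under 0.05. Means over ages or groups weight them equally. Genes of other lists were tested by their kept probe set with the highest mean, and up to 4 called genes of a list were named by p. Csf1, the other ligand of Csf1r, and, between regions, Itgb5 and Serping1, the single higher genes of their lists, were named outside this rule after their values were seen. The fit was tested on simulated data. Alternatives were offsets of 1 and 64, no filter, a 60th percentile filter, quantile and cyclic loess normalization, 1 probe set per gene, the compared groups alone, a replicate block, and leaving out each array; the 4-week wild-type region comparison was added after seeing the data. The members and lists were chosen with earlier results of these data known.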

Additional observations from a re-analysis of the deposited data

How the results depend on the processing

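Of the 14 member counts, those of cerebellum by genotype, forebrain by genotype at 11 weeks, all interactions, age in forebrain and region with all probe sets stayed within 1.5 times of their value under every alternative run, and no called value changed sign. The 2 forebrain calls at 4 weeks became 1 without a filter or with cyclic loess and 0 with the compared groups alone, and 0 to 2 without single arrays (0 without knock-in or wild-type replicate 2, 1 without replicate 1 of either; without wild-type replicate 3 Cx3cr1 1450020_at took the place of Tmem119). The call over both ages of forebrain became 2 with the compared groups alone, where Cx3cr1 1450019_at passed. The call over all 4 groups became 2 under the 60th percentile filter, with 1 probe set per gene and with the replicate block, each time by C1qc (adjusted p = 0.042, 0.0449 and 0.0305), and 1 to 2 without single arrays. The second call there was C1qc without knock-in cerebellum 4 weeks replicate 3, knock-in forebrain 4 weeks replicate 3, wild-type forebrain 4 weeks replicate 2, knock-in forebrain 11 weeks replicate 1 or wild-type forebrain 11 weeks replicate 2. It was Tmem119, Cx3cr1 1450019_at, C1qb 1417063_at or Cx3cr1 1450020_at without knock-in cerebellum 4 weeks replicate 1, or wild-type cerebellum 4 weeks replicate 1, cerebellum 4 weeks replicate 2 or forebrain 4 weeks replicate 1. The P2ry12 call with age became 0 without a filter, with quantile normalization, cyclic loess, the compared groups alone or the replicate block, and 0 without any 1 array. With 1 probe set per gene the region counts were 10 of 10 genes in both genotypes. Same-numbered arrays of one age had deviations that correlated at -0.10 to 0.18. Between regions the mean r at 4 weeks was 0.06 for same-numbered arrays and -0.03 for others. At 11 weeks it was 0.06 and -0.06. Deviations from the mean of 2 or 3 arrays cancel within a group, so these values cannot decide whether the numbers pair the samples. The replicate block moved only the 2 counts given. With 2 arrays per group at 11 weeks, differences there are less precise than at 4 weeks.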
